A study of Mus musculus with 5 samples.

Results

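REST is a transcriptional repressor whose zinc fingers bind a long DNA element, RE1, and which holds neuronal genes silent in other cells. Rab3 proteins are small GTPases that sit on secretory vesicles and, when loaded with GTP, bind effectors that dock and prime the vesicle for calcium-triggered release in neurons and endocrine cells. The effectors include rabphilin (Rph3a), Noc2 (Rph3al) and the RIM scaffolds of the release site. REST peaks were examined at 9 genes of this machinery, chosen by name: the GTPase genes Rab3a, Rab3b, Rab3c and Rab3d, the effector genes Rph3a and Rph3al, and the RIM genes Rims1, Rims2 and Rims4. They are 9 of 22380 protein-coding genes of the annotation, and a site was counted for a gene when it overlapped the gene body or its centre lay within 100 kb of the gene's start.

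The data were lists of REST peaks from ChIP-seq of pancreas from wild-type, untreated mouse embryos on a mixed background with C57BL/6, made with a monoclonal antibody against REST (12C11). The later stage, E18.5, had 3 libraries (E18.5 A, B and C) that each pooled 3 to 4 pancreases, and the earlier, E13.5, had 2 (E13.5 A and B) that each pooled 4 to 6. The E18.5 lists held 541, 417 and 226 peaks and the E13.5 lists 1400 and 1333, which overlapped to make 1860 sites, 113 of them called in all 5 libraries. Read depth is unknown, so the shorter E18.5 lists cannot be told apart from weaker libraries, and a missing peak was not called but cannot be said to be unbound. Peaks of E13.5 A were short (median 161 bp) beside those of E13.5 B (483 bp). Called peaks carry no expression, so the labelled tissue could not be checked against marker genes, and all cell types of the organ were pooled.

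Each peak has a deposited score in whole numbers of unknown unit. Scores were turned into percentile ranks within each library, where 100 is the highest-scoring peak. Positions are mm9, counted from 1, and a negative distance is upstream of the gene's start.

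To show what lies under the member peaks, a 21-base RE1 matrix was learned from 500 strong E13.5 sites at other loci, and the best match was sought in the 500 bp around each site. A match scored at least 9.20 bits, a limit that 1% of windows 10 kb away passed, and the highest possible score was 34.7 bits. Below, each element is written 5′ to 3′ on its own strand, and capitals mark the bases that equal the matrix's most frequent base at its 12 positions with at least 1 bit of information. The first line is the most frequent base at every position.
RE1 of these data: ggcgCTGTCCatGGTgCTGaa
Rab3d, 32.3 kb upstream, first: ggtgCTGTCCacGGTcCTGaa
Rab3d, 32.3 kb upstream, second: gcctCTGTCCttGGTgCTGac
Rph3a, 0.106 kb upstream: ggtgCTGTCCgtGGTaCTGac
Rph3a, 48.3 kb downstream: gtacCTGTCCagGGTgCTGaa
Rph3a, 59.4 kb upstream: agtgCTGTCCgcaGTgCTGaa
Rims4, 29.1 kb downstream: ggaaCTGTCCatGGTgCTagc

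Sites lay at 6 of the 9 members, and 3 members had none. There were 9 sites in all: 4 at Rph3a and 1 each at Rab3a, Rab3c, Rab3d, Rims2 and Rims4. A site called in at least 2 of the 3 E18.5 libraries was present at 2 members, Rab3d and Rph3a, against 3.99% of all protein-coding genes under the same rule. A site called in both E13.5 libraries was present at 3 members, Rab3d, Rph3a and Rims4, against 11.9% of all genes. A site in any library was present at 6 of 9, against 16.7% of all genes. With a reach of 20 kb the Rab3d site no longer counted, which left 1 member at E18.5 (1.25% of all genes) and 2 at E13.5 (3.98%). The genes were listed with earlier results of these data known, so these counts are a description and the list was not tested.

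Of the 9 sites, 3 were called in at least 2 E18.5 libraries and 1 more in a single E18.5 library, against 6 called in both E13.5 libraries and 3 in a single E13.5 library. No member site was seen at E18.5 without a peak at E13.5. The sites in 1 E13.5 library only were at Rab3a, Rab3c and Rims2. Among all 1186 sites of the series called in both E13.5 libraries, 244 (20.6%) were called in at least 2 E18.5 libraries, and among the 6 such member sites 3 were.

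**Figure D1:**
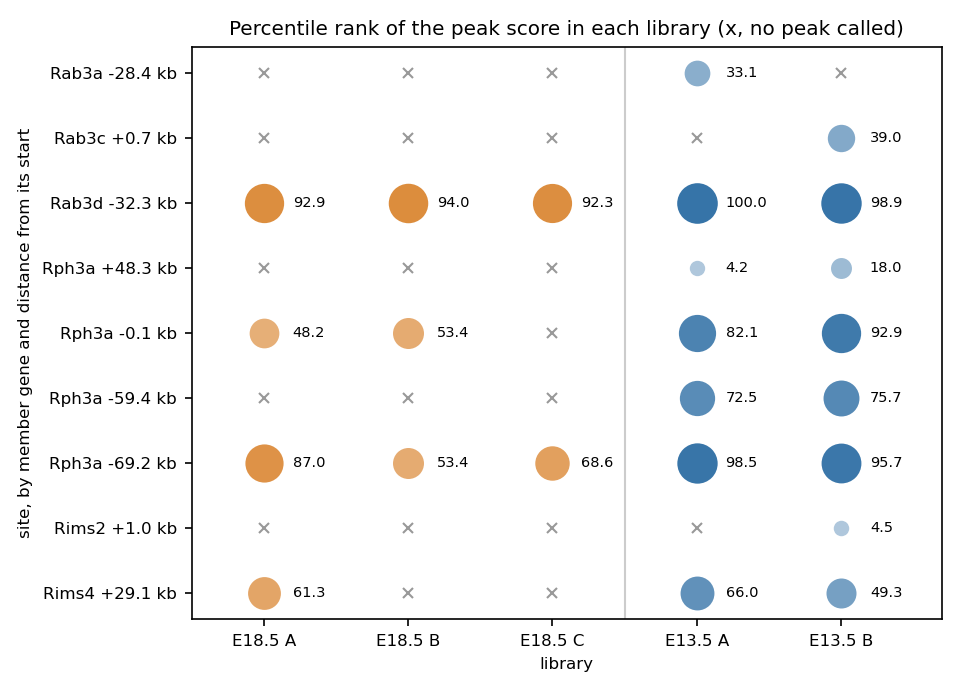
Percentile rank of the peak score (number beside each dot, larger and darker for higher ranks) for the 9 member sites (rows, named by gene and distance from its start) in the 3 E18.5 libraries (orange, left) and the 2 E13.5 libraries (blue, right), with a grey cross where no peak was called. The Rab3d site and the Rph3a site 69.2 kb upstream are the only rows with a dot in every library.

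Rab3d, the isoform known from zymogen granules of exocrine cells, had the strongest peak of the 9 genes. Its single site (chr9:21754680-21755251) was intergenic, 32.3 kb upstream of the start of Rab3d. Scores there were 16, 19 and 26 in E18.5 A, B and C, against 73 and 76 in E13.5 A and B. As percentile ranks these were 92.9, 94.0 and 92.3 at E18.5, against 100 and 98.9 at E13.5. It was the highest-scoring of all 1400 peaks in E13.5 A and the 15th in E13.5 B, and it stood among the best 42 of 541, 27 of 417 and 20 of 226 peaks in E18.5 A, B and C. Each E18.5 rank was below each E13.5 rank, as was the case at 61.9% of the 113 sites called in all 5 libraries. The site lay closer to another gene than to Rab3d, 5.235 kb upstream of the start of 2310047B19Rik, and the starts of Tmem205, Ccdc159 and BC018242 lay between it and Rab3d, so its assignment to Rab3d rests on distance alone.

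Under the Rab3d peak lay 2 RE1 elements on opposite strands, 5 bases apart, which is why the stretch is shown whole, on the plus strand with both elements in capitals (chr9:21754944-21754990).
Rab3d, RE1 pair: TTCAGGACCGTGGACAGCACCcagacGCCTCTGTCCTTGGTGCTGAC
The first element scored 29.97 bits, above 94.0% of the best scores of all sites, and the second 26.8 bits. All 12 strong positions were intact in the first. Of all searched sites, 6.06% held 2 or more matches. The first element was inside the called peak in all 5 libraries, and its centre lay 3.5, 24 and 1.5 bp from the centre of the peak in E18.5 A, B and C and 4.5 and 11.5 bp in E13.5 A and B.

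Rph3a, which encodes the Rab3 effector rabphilin, had more sites than any other member, 4, spread over 118 kb around and inside the gene (chr5:121390511-121459527, minus strand). The site at its start (chr5:121459361-121459896) was centred 0.118 kb upstream. It had scores of 6 and 6 in E18.5 A and B, no peak in E18.5 C, and scores of 24 and 40 in E13.5 A and B. In ranks, E18.5 A and B gave 48.2 and 53.4, against 82.1 and 92.9 in E13.5 A and B. The values of the 2 stages did not overlap, with none from E18.5 C. Among the 113 sites called in all 5 libraries, 61.9% had every E18.5 rank below every E13.5 rank. Its RE1 scored 29.2 bits, had 4 mismatches, none at a strong position, and shared 17 of 21 bases with the first Rab3d element. The element is shown in capitals with 50 bases on either side, on the strand of the gene (chr5:121459573-121459693), since it is the one member element of fixed spacing in a promoter window.
Rph3a, start: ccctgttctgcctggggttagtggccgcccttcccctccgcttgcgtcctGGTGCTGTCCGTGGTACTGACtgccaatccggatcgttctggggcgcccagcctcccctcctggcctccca

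RefSeq promoter windows of 300 bases (GRCm38.p6, 250 before to 50 after a start) existed for 7 of the 9 members and were scored with the same matrix. Rph3a was the one member with a match, in 1 of its 3 windows, and that window held the element above unchanged. Across RefSeq genes with a window, 1.81% had a match. The best scores of the other windows were between -5.44 bits (Rab3b) and 2.15 bits (Rims1), and no window was listed for Rims2 or Rims4. The lack of a match says only that the learned pattern was not in those bases.

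The most strongly and widely called Rph3a site lay far upstream, at 69.2 kb (chr5:121528481-121529010), with no other gene's start nearer. Its scores were 12, 6 and 14 in E18.5 A, B and C, against 47 in each of E13.5 A and B. Its ranks were 87.0, 53.4 and 68.6 at E18.5, against 98.5 and 95.7 at E13.5. The E18.5 libraries thus spread widely, with B lowest, while both E13.5 libraries were near the top of their lists. No RE1 of the usual spacing was present, the best scoring 3.09 bits. When the left and right parts of the element were allowed up to 20 more bases between them, 2 elements appeared on the plus strand, each with 5 extra bases, 17 bases apart, at 28.2 and 26.1 bits against a limit of 18.7 bits for such split elements. Both stand in capitals in the stretch that holds them (chr5:121528710-121528778).
Rph3a, 69.2 kb upstream, split pair: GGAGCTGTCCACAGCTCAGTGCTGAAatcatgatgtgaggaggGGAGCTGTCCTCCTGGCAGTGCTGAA
Of the 653 sites of the series without a match of fixed spacing, 27.6% had such a split element, most often with 5 to 8 extra bases (28, 66, 35 and 23 of 180 sites). With split elements allowed, and at that higher limit, 4.38% of all searched sites held 2 or more elements.

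The 2 other Rph3a sites were called in both E13.5 libraries and in no E18.5 library. The site 59.4 kb upstream (chr5:121518656-121519170) had scores of 20 and 26 and ranks of 72.5 and 75.7 in E13.5 A and B. The intronic site 48.3 kb downstream of the start (chr5:121410985-121411405) had scores of 6 and 11 in E13.5 A and B. Counted from the top, and with ties, it stood between places 1316 and 1368 of 1400 peaks in E13.5 A and between 1057 and 1131 of 1333 in E13.5 B. Their RE1 scores were nearly equal, 24.3 bits upstream and 25.2 bits in the intron, while their ranks were far apart. How rank relates to element score was not tested. The upstream element lacked 1 strong base and the intronic one none. The start nearest to the intronic site was that of Oas1d, an interferon-induced gene, at 46.8 kb.

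**Figure D2:**
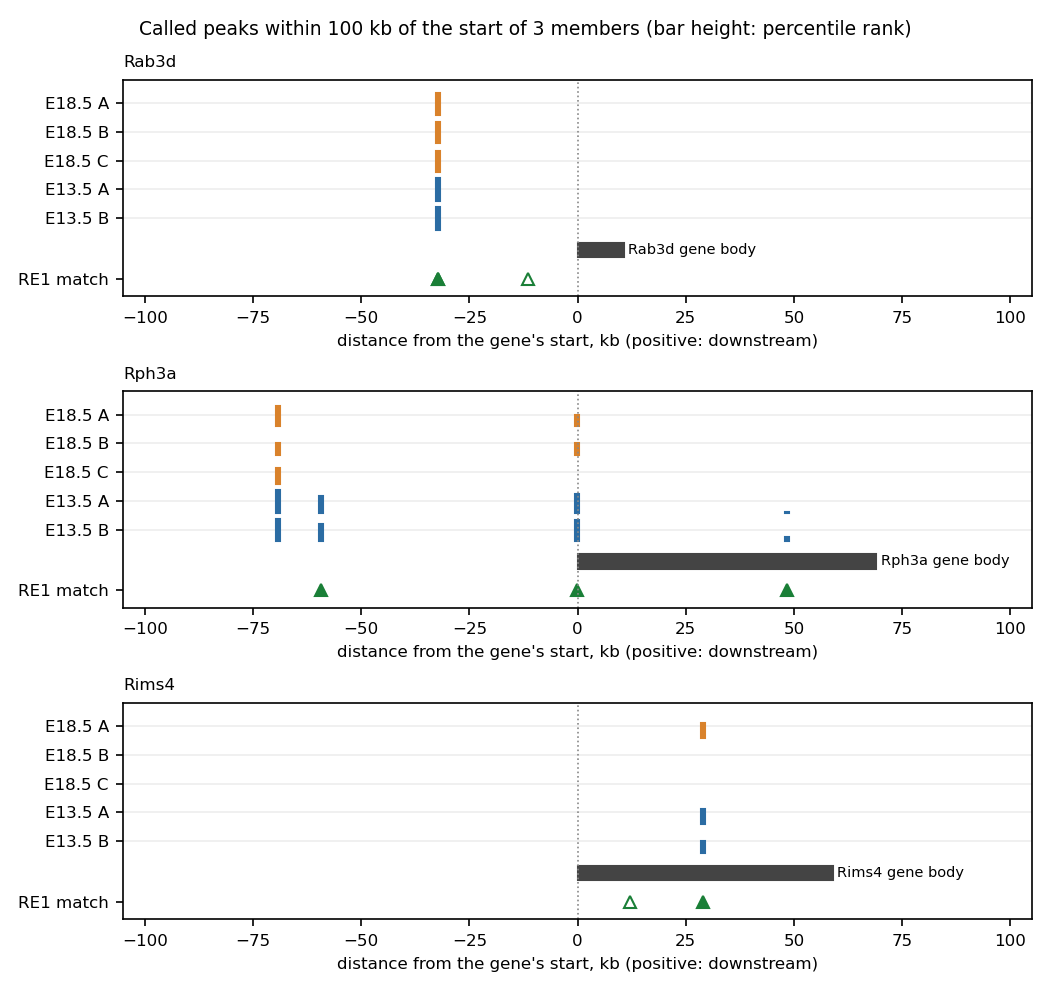
Called peaks around the start of Rab3d (top), Rph3a (middle) and Rims4 (bottom) by distance from the start in kb, with E18.5 libraries (orange) above E13.5 libraries (blue), bar height giving the percentile rank, the gene body as a dark bar, and RE1 matches of at least 15.0 bits as triangles, filled where a site was called. Rph3a has 4 sites with peaks at E13.5 and 2 with peaks in at least 2 E18.5 libraries, and the site at 69.2 kb upstream has no triangle because its elements are split.

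Rims4 encodes a short RIM family protein. Its site (chr2:163715090-163715603) lay in an intron, 29.1 kb downstream of the start, and Rims4 was the gene with the nearest start. The score was 7 in E18.5 A, with no peak in E18.5 B and C, against 18 and 17 in E13.5 A and B. Ranks were 61.3 in E18.5 A, against 66.0 and 49.3 in E13.5 A and B, so the single E18.5 rank fell between those of the E13.5 libraries. The element scored 22.9 bits, close to the median of all sites at 21.3 bits, and lacked 1 strong base. It is shown in capitals with 50 bases on either side (chr2:163715291-163715411, plus strand), opposite to the strand of the gene.
Rims4, intron: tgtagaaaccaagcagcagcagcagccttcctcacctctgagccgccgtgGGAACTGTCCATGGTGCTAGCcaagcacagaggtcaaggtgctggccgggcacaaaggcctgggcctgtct
A further match in Rims4, 12.1 kb downstream of the start, scored 20.4 bits (chr2:163732327-163732347) and had no peak in any library.
Rims4, 12.1 kb downstream: gggtCTGTCCagGGTaCTGac

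Rab3a, the main isoform of synaptic vesicles, had a single peak, in E13.5 A, with a score of 11 and a rank of 33.1. It was 113 bp long (chr8:73250114-73250226) and lay 28.4 kb upstream in an intron of the phosphodiesterase gene Pde4c, whose start was 2.55 kb away. Rab3c, a further vesicle isoform, had a single peak, in E13.5 B, with a score of 15 and a rank of 39.0 (chr13:111070169-111070591). That peak was 0.729 kb inside the gene, in an annotated UTR and 13 bp from the start of another transcript. Rims2, a RIM scaffold of endocrine cells and neurons, had a single peak in E13.5 B, 1.03 kb inside the gene in an intron (chr15:39030675-39031138), with a score of 8 and a rank of 4.46. None of these 3 peaks had a counterpart in the other E13.5 library or at E18.5.

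At the fixed spacing, none of these 3 sites had an RE1, their best scores being -2.20, -2.66 and 4.17 bits at Rab3a, Rab3c and Rims2. A search added after these scores were seen left out the 2 middle positions and let the left and right parts move from 2 bases closer to 20 bases farther apart, with a limit of 19.6 bits that 1% of windows 10 kb away passed. It found an element 2 bases shorter at Rab3a, at 26.7 bits and 6 bp from the site's centre (chr8:73250155-73250173, minus strand), and another at Rab3c, at 22.6 bits and 12 bp from the centre (chr13:111070359-111070377, plus strand). These elements are shown because the usual spacing missed them.
Rab3a, 28.4 kb upstream, 2 bases closer: ggagCTGTCCaGTgCTGac
Rab3c, 0.729 kb downstream, 2 bases closer: ggagCTGTCCGcTcCTGac
That spacing was the best one at 16 of 1849 searched sites (0.865%), while any spacing in this range passed at 66.0%. The best score at Rims2 was 11.8 bits, under the limit.

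**Figure D3:**
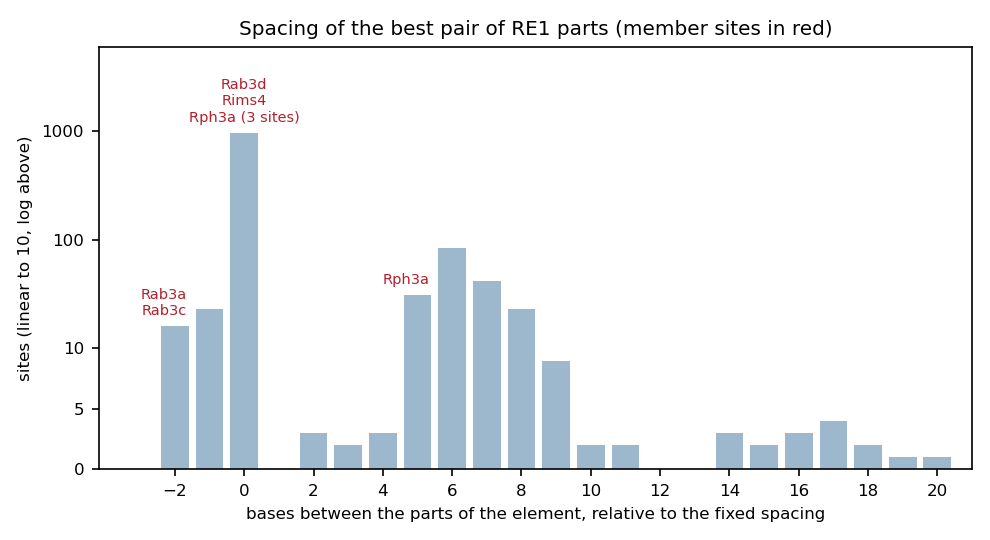
Number of sites of the series (bars, vertical axis linear to 10 and logarithmic above) by the spacing of their best pair of RE1 parts relative to the fixed spacing, with the member sites named in red. Most of the 1221 matched sites have the fixed spacing (965), 31 share the spacing of the far upstream Rph3a site (5 bases more), and 16 share that of Rab3a and Rab3c (2 bases closer).

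In all, 5 of the 9 member sites had an RE1 of fixed spacing, against 64.7% of all searched sites. Of the 6 member sites called in both E13.5 libraries 5 had one, against 81.5% of such sites in the series. The series-wide shares and score ranks include the 500 sites that the matrix was learned from, which can raise them. No member site was among those 500. With split elements counted, 6 of 9 had one, against 74.4% of all searched sites. With the range of spacing chosen last, after the scores of the member sites were seen, 8 of 9 did, against 66.0% of all searched sites. Each of the 5 fixed elements lay inside every called peak of its site, with its centre between 5 and 26 bp from the centre of the site. By RE1 score, the Rab3d site and the Rph3a start ranked above 94.0% and 90.9% of all sites, and the 3 others above 67.9% (Rph3a intron), 61.8% (Rph3a, 59.4 kb upstream) and 55.7% (Rims4).

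**Figure D4:**
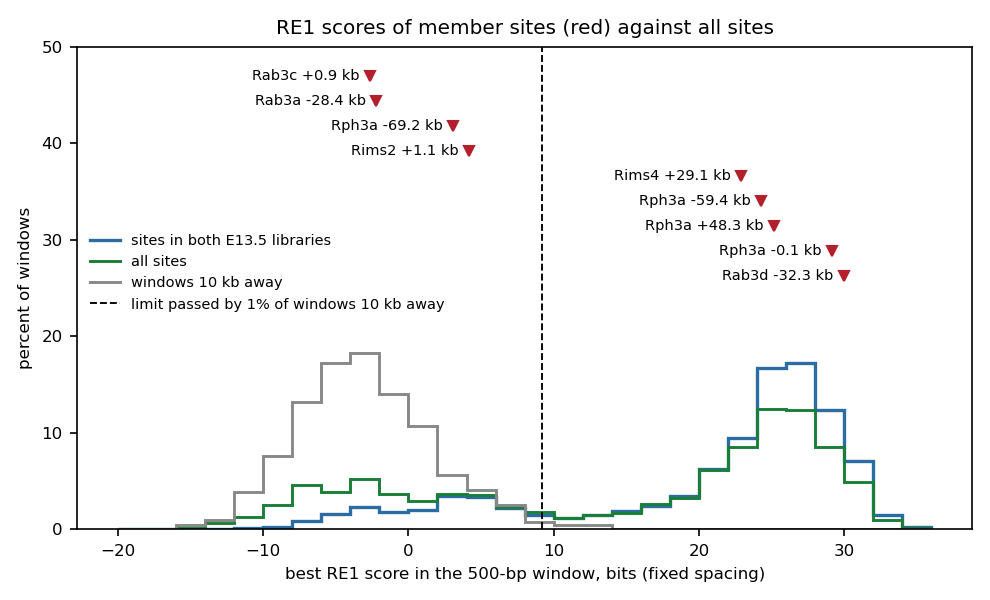
Distribution of the best RE1 score, in bits, in 500-bp windows at sites called in both E13.5 libraries (blue), at all sites (green) and at windows 10 kb away (grey), as percent of windows, with the limit of 9.20 bits (dashed) and the 9 member sites as red triangles at heights chosen for legibility. The 5 member sites with a match score between 22.9 and 29.97 bits and the 4 others between -2.66 and 4.17 bits.

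Rab3b (chr4:108551668-108615929), a Rab3 isoform of neurons and endocrine cells, Rph3al (chr11:75644501-75751931), the Noc2 gene, and Rims1 (chr1:22276332-22911673), the RIM scaffold of synapses, had no peak in any library. The nearest site of the series was 1209 kb from the start of Rab3b, next to Dmrta2, 708 kb from that of Rph3al, next to Abr, and 478 kb from that of Rims1, next to Ogfrl1. The farthest site that was counted was the Rph3a site at 69.2 kb, so no counted site stood near the 100-kb limit. For the members with a site, sites just beyond that limit were not looked for. Rims1 is the longest of the 9 genes, 635 kb, and Rims2 the next at 484 kb.

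The member loci were also scanned base by base for elements of at least 15.0 bits, the limit that 0.1% of windows 10 kb away passed. There were 13 elements, 6 of them under a called site, all at Rab3d, Rph3a and Rims4. Across the genome 7847 elements reached this limit, and 15.5% lay at a site. Among the 1850 elements of at least 20 bits, 57.5% did. At the members 7 elements reached 20 bits, and 6 lay at a site, the exception being the second Rims4 element. Of the 6 elements below 20 bits, none had a peak: 2 at Rims1 (16.9 and 16.6 bits), 2 at Rims2 (18.2 and 16.0), 1 at Rph3al (18.3) and 1 at Rab3d (15.9). Rab3a, Rab3b and Rab3c had no element of fixed spacing at this limit. Of the genome's elements from 15 to below 16, 16 to below 18 and 18 to below 20 bits, 0.836%, 2.52% and 6.50% lay at a site.

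Only the Rab3d site and the far upstream Rph3a site could be compared between stages in every library. The mean rank of the Rab3d site was 93.0 ± 0.886 at E18.5 (SD, n = 3) and 99.5 ± 0.743 at E13.5 (SD, n = 2), a difference of -6.43 points. That of the Rph3a site was 69.6 ± 16.8 at E18.5 and 97.1 ± 1.94 at E13.5 (SD, n = 3 and 2), a difference of -27.5 points. On this scale, which ranks each peak within its own list, all 3 E18.5 values were below both E13.5 values at either site. With 10 arrangements of 3 and 2 libraries the two-sided exact permutation p was 0.2 for each, the smallest the design allows, and 0.318 after Benjamini-Hochberg adjustment over the 113 sites called in all 5 libraries. Across those 113 sites the median difference was -16.8 points, 70 sites had every E18.5 rank below every E13.5 rank and 1 had the opposite, so lower ranks at E18.5 were common to the series. Because the E18.5 lists are shorter, ranks were also taken among the 113 shared sites alone. There the Rab3d site ranked at 76.1, 83.2 and 87.2 in E18.5 A, B and C, against 100 and 88.5 in E13.5 A and B. The difference was -12.1 points, and the closest values were 87.2 in E18.5 C and 88.5 in E13.5 B. How many of the 113 sites were separated on this scale was not counted, so this separation cannot be called unusual. The Rph3a site ranked at 59.3, 21.2 and 48.2 at E18.5, against 81.9 and 57.5 at E13.5, a difference of -26.8 points. On this scale the stages overlapped at Rph3a, since E18.5 A stood above E13.5 B. These libraries were all pools of different embryos. Complete separation of the stages gives the p of 0.2 whatever the spread between libraries, so it does not measure that spread.

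**Figure D5:**
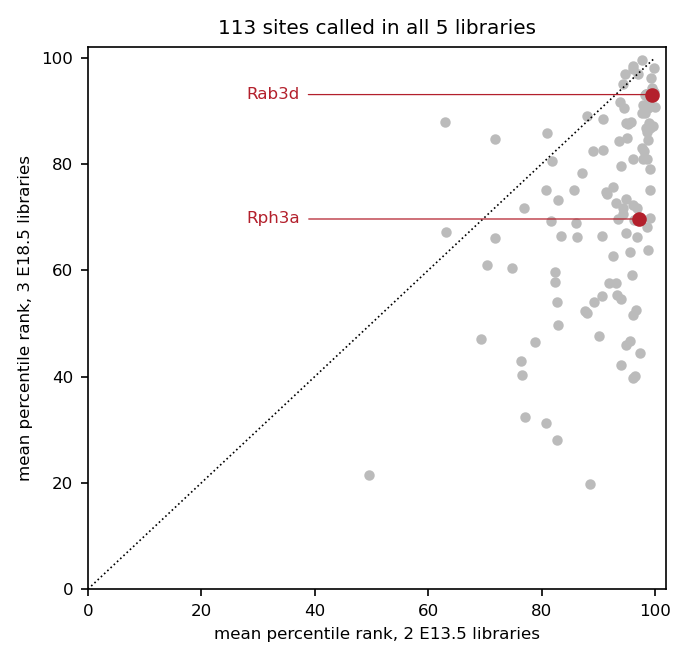
Mean percentile rank over the 3 E18.5 libraries (vertical) against the mean over the 2 E13.5 libraries (horizontal) for the 113 sites called in all 5 libraries, with the line of equal ranks dotted and the member sites in red. The Rab3d site is at 93.0 and 99.5, and the far upstream Rph3a site is at 69.6 and 97.1.

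Other genes of the pathway were read from 2 lists, partners and regulators of Rab3 and RIM (20 genes) and the other Rab GTPases (50 genes). Of the partners, 3 had a site in at least 2 E18.5 libraries (Rims3, Unc13a and Bsn), 7 in both E13.5 libraries (these 3 with Madd, Pclo, Rimbp2 and Erc2) and 8 in any library, where 3.99%, 11.9% and 16.7% of all genes did. Madd encodes the exchange factor that loads Rab3 with GTP, and Pclo and Erc2 encode the release-site scaffolds piccolo and CAST. Unc13a, whose product primes vesicles beside RIM, had a site 0.018 kb from its start with ranks of 84.6, 95.4 and 94.7 in E18.5 A, B and C, against 94.3 and 93.4 in E13.5 A and B. Bsn, which encodes the release-site scaffold bassoon, had a site 0.240 kb from its start with ranks of 76.7, 80.0 and 68.6 at E18.5, against 83.8 and 77.7 at E13.5. In both genes the ranks of the 2 stages overlapped. Rims3, a close relative of Rims4, had an intronic site 11.7 kb from its start with ranks of 27.0 and 27.0 in E18.5 A and C, against 77.6 and 89.5 in E13.5 A and B. Its element scored 25.3 bits at the fixed spacing.

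The sites of Unc13a and Bsn, like the far upstream Rph3a site, held split elements, with 6 and 8 extra bases and scores of 32.8 and 29.5 bits. Unlike that Rph3a site, Unc13a also passed the limit at the fixed spacing, at 9.82 bits. Split elements also lay at Pclo, Erc2 and the Rimbp2 site 35.9 kb from its start, at 22.4, 21.7 and 28.2 bits. They had 6, 19 and 7 extra bases. The spacing at Erc2 was rare, held by 2 of the 180 sites with split elements and no match of fixed spacing. Rimbp2, which encodes a RIM-binding protein, had 3 intronic sites, all called in both E13.5 libraries, 35.9, 74.0 and 100.4 kb from its start. Of the other Rab genes, which serve other membrane traffic, 3 of 50 had a site in at least 2 E18.5 libraries (Rab35, Rab4a and Rab11a). In both E13.5 libraries 7 had one (these 3 with Rab39, Rab5c, Rab37 and Rab1b), and in any library 9 did. These were 6%, 14% and 18% of the list, against 3.99%, 11.9% and 16.7% of all genes. Among the 7, a site called in both E13.5 libraries had the Rab gene as the nearest start at Rab39 and Rab11a. At the 9 members the nearest start belonged to the member at 6 of 9 sites, the exceptions being the sites at Rab3a and Rab3d and the intronic site of Rph3a.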

How the data were processed

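REST ChIP-seq peaks came from 3 E18.5 and 2 E13.5 libraries of mouse pancreas. The submitters' processing notes name Bowtie2 2.2.5, SAMtools and MACS2 2.1.0, and both NCBI36 and mm9. The authors deposited 1 peak list per library with a score for each peak, and the names of the lists state removal of duplicates, a mapping quality filter and a false discovery rate of 10%. No peak passed the end of an mm9 sequence, and 25 peaks on unplaced sequence were not searched. Read depth is unknown, so a missing peak can reflect depth.

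Overlapping entries of a list were merged with the highest score kept, and peaks of different libraries that overlapped by at least 1 bp were joined into a site. Genes were those of GENCODE vM1 (NCBIM37), and scores were ranked within a library. The RE1 matrix was learned by expectation maximisation in 120-bp windows outside the member loci and chromosome 18. It was tested on simulated data, as was the exact permutation test. Sequences were read from the mm9 genome, and promoters from RefSeq. Python 3.11.15 with numpy 2.4.6, pandas, scipy and statsmodels was used.

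The members and lists were chosen with earlier results of these data known. Every member and every site in its reach is named, with the nearest gene where that is another, and of the 2 other lists the genes with a site in both E13.5 libraries. Alternatives changed the reach, the overlap, the lists' length, the libraries, the rank scale and the RE1 limit, window and spacing.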

Additional observations from a re-analysis of the deposited data

How the results depend on the processing

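With at least 2 E18.5 libraries, 2 members had a site. The count was 1 (Rph3a) with a reach of 20 or 5 kb, with 5 kb and no gene body, and with the nearest start only, and stayed at 2 without any one E18.5 library. The share of all genes fell too, from 3.99% to 1.25%, 0.858%, 0.594% and 0.996% in that order of settings. It was not computed for the settings that left a library out. Member sites at E18.5 numbered 3, and 1 with a reach of 20 or 5 kb, gene bodies counted or not, and from 2 to 3 without each library. With both E13.5 libraries, 3 members had a site. The count was 1 with 5 kb and no gene body (tried only once the values were known), and 5 from E13.5 B alone and 4 from E13.5 A alone. It was also 1 when peaks had to cover 50% of each other, where the short E13.5 A peaks kept Rph3a only. The share of all genes at E13.5 was 11.9% in the main setting. It was 1.52% with 5 kb and no gene body and 4.01% with 50% covered. Even at Rph3a no E13.5 A peak covered 50% of an E13.5 B peak. They were joined through E18.5 peaks of a length between theirs, so this count also depends on the E18.5 lists. Of 6 sites at E13.5, 3 remained with 20 or 5 kb, 1 with 5 kb and no gene body, and 2 among the 226 top-scoring peaks of each library, against 8 and 7 in single libraries. RE1 matches at member sites numbered 5 under 2 other limits and 2 other windows, 6 with wider spacing and 8 with closer and wider spacing, the last also tried once the values were known.

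Rank differences kept their sign. All E18.5 ranks were below all E13.5 ranks at either site. Leaving a library out or comparing libraries of the same letter therefore could not change the sign, and these settings show only the size. For Rab3d they ranged from -6.95 to -5.90 points without each library, and with the replicate block (libraries of the same letter, from different embryos) -6.03. For Rph3a they ranged from -36.1 to -19.3 and with the replicate block were -26.9. Deviations from the stage means correlated at -0.0437 (A) and 0.102 (B) over 113 sites, and at 0.165 for E18.5 C with E13.5 A. With 2 E13.5 libraries the deviations of one mirror those of the other, so these values cannot decide whether the letters pair libraries. On the log2 score scale the differences were -1.90 and -2.23. Scores were lower at E18.5 in general, with medians over all peaks of 6, 6 and 11 in E18.5 A, B and C. The medians were 14 and 17 in E13.5 A and B. The log2 differences include this general shift.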
